A study of Mus musculus with 10 samples.

Results

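The metabotropic glutamate receptors described here are Grm2, Grm3, Grm4, Grm5, Grm6, Grm7 and Grm8, 7 genes of the 18539 that the arrays named. They were found by gene symbol, through the RefSeq accession that the files give for each probe, and all 7 had at least 1 probe, 12 probes in total. RNA from the left hemibrain of 10 male C57BL/6J mice, labeled with Cy5, was hybridized against another RNA labeled with Cy3. From 3 weeks of age the mice received either a standard diet (SD) or a diet enriched in n-3 fatty acids from fish oil (FD) for about 20 weeks, to an age of 5 months. The diet field gives FD for the Cy5 RNA of all 10 arrays while the free text of the same arrays calls each a control, so no array could be given a diet, FD and SD were not compared, and values are given per array, or as the lowest, the median and the highest over arrays. The arrays lay on 4 slides, of which slide 2 and slide 3 held 4 arrays each and the others 1 array each. C10-413 was alone on slide 1 and C10-437 alone on slide 4, so slide and animal cannot be told apart for either.

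The receptors are class C G protein-coupled receptors that respond to glutamate, the main excitatory transmitter of the brain. Grm5 belongs to group I, which couples to Gq and phospholipase C and sits largely on the receiving side of synapses, whereas group II (Grm2 and Grm3) and group III receptors (Grm4, Grm6, Grm7 and Grm8) couple to Gi and Go, lower cyclic AMP and often reduce transmitter release. Grm3 is also made by astrocytes, Grm4 is abundant in granule cells of the cerebellum, and Grm6 is known from ON bipolar cells of the retina.

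On the array of animal C10-434, 49.8% of probes were well above background in Cy5, a flag set by the scanner software, against 68.2% to 76.9% on the other 9 arrays. The receptor calls and some receptor values are therefore given without it too, and the list medians are not. The Cy3 label names pooled hemibrain, whereas the methods name a commercial reference RNA. Of the neuron list, 8 of the 8 genes with a value on every array were above 1 in log2 Cy5/Cy3 on all 10 arrays, and the list had a median of 6.44. The proliferating cell list had a median of -6.22, with 7 of 7 genes below -1 on all 10 arrays. Beside the hemibrain RNA, the Cy3 RNA thus gave far lower signals for neuronal markers and far higher ones for proliferation markers. That goes against a label of hemibrain, and it is called the reference channel. The oligodendrocyte list had a median of 4.84 and the astrocyte list one of 5.95, and of the liver list 0 of 4 genes were well above background in Cy5 on all arrays. Microglial markers had a median of 2.37, from 0.33 for Tmem119 to P2ry12, whose Cy3 spot was not well above background on any array and whose hemibrain signal was at least 8.55-fold to at least 63.1-fold higher on single arrays. List medians include genes with such dim Cy3 spots.

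Of the 7 receptors, 5 were higher in the hemibrain channel by the rule used here, a log2 Cy5/Cy3 above 1 on every one of the 10 arrays. The same rule held for 17.7% of the 17665 genes with a value on every array. Grm2, Grm3, Grm5, Grm7 and Grm8 passed it and Grm4 and Grm6 did not. Without C10-434 the same 5 receptors passed, and the share of all genes was 18.9%. Leaving out an array can add genes under this rule but cannot remove any. With background-subtracted signals, low values raised to a floor and an offset of 50 added, 3 passed (Grm3, Grm5 and Grm8), against 14.5% of all genes. With normexp, a background correction by a fitted model, run on median signals with the same offset, 0 passed, against 3.44%. The offset alone, added to the processed signals, left 4 (Grm2 was lost), against 16.7%, and normexp without the offset left 0, against 3.49%. Lower values, below -1 on every array, were found for 0 receptors and 13.2% of all genes, and for 0 and 14.3% without C10-434. The median of the receptors' median log2 ratios was 2.67, beside 0.12 for all genes. A ratio in bulk tissue does not tell more cells of a type from more RNA per cell. No arrays with swapped dyes were analysed here, so all ratios and bounds are open to dye bias.

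**Figure D1:**
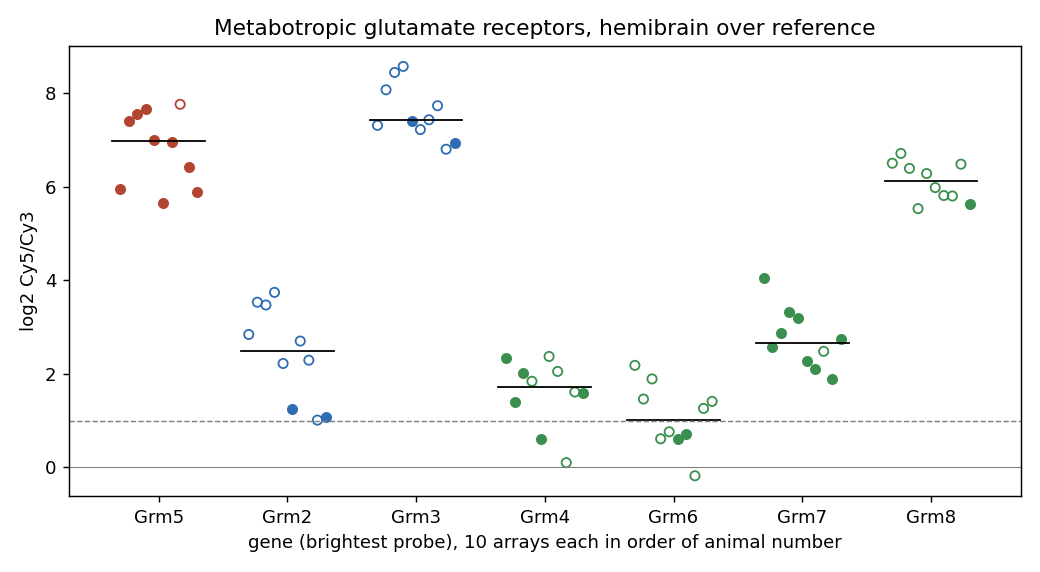
Log2 Cy5/Cy3 of each receptor's brightest probe on 10 arrays, with bars at the median and a dashed line at 1. Filled points are well above background in both dyes and open points are not. Grm3, Grm5 and Grm8 lie above 5.5 on every array, whereas Grm4 and Grm6 cross the line.

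The reference channel was dim for most receptors. In Cy5, 4 of the 7 brightest probes (Grm3, Grm5, Grm7 and Grm8) were well above background on all 10 arrays, against 65.7% of all genes. In Cy3 the count was 0 of 7, against 72.9%. Without C10-434 the counts were 5 of 7 in Cy5 (Grm2 was added), against 76.6%, and 2 of 7 in Cy3 (Grm5 and Grm7), against 77.7%. Where the Cy3 spot was not well above background, the ratio is set partly by background and only a lower bound of the fold can be given. The bound divides the Cy5 signal by the higher of the probe's own Cy3 signal and the lowest Cy3 signal among probes well above background on that array, after loess and quantile normalization of the mean brightness. All bounds hold for this processing alone.

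Grm5, a group I receptor that anchors to Homer proteins at the postsynaptic density, had 4 probes. For the brightest, A_51_P465591, the log2 ratio ran from 5.66 (C10-424) through a median of 6.97 to 7.76 (C10-434). Its Cy3 signal was well above background on 9 arrays, and over these the ratio lay between 5.66 and 7.67. Without C10-434 the median was 6.96. The other probes gave lower ratios. Probe A_52_P181394 ran from 2.62 to 4.31 with a median of 3.72, and A_52_P675611 from 3.33 to 5.45 with a median of 4.63. For the latter, not well above background in Cy3 on any array, the hemibrain signal was at least 5.81-fold to at least 21.9-fold higher on single arrays. Probe A_51_P333441 ran from 1.12 to 2.26 with a median of 1.54, although both dyes were well above background on 9 arrays. The 4 probes therefore agreed in sign on all 10 arrays and not in size.

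**Figure D2:**
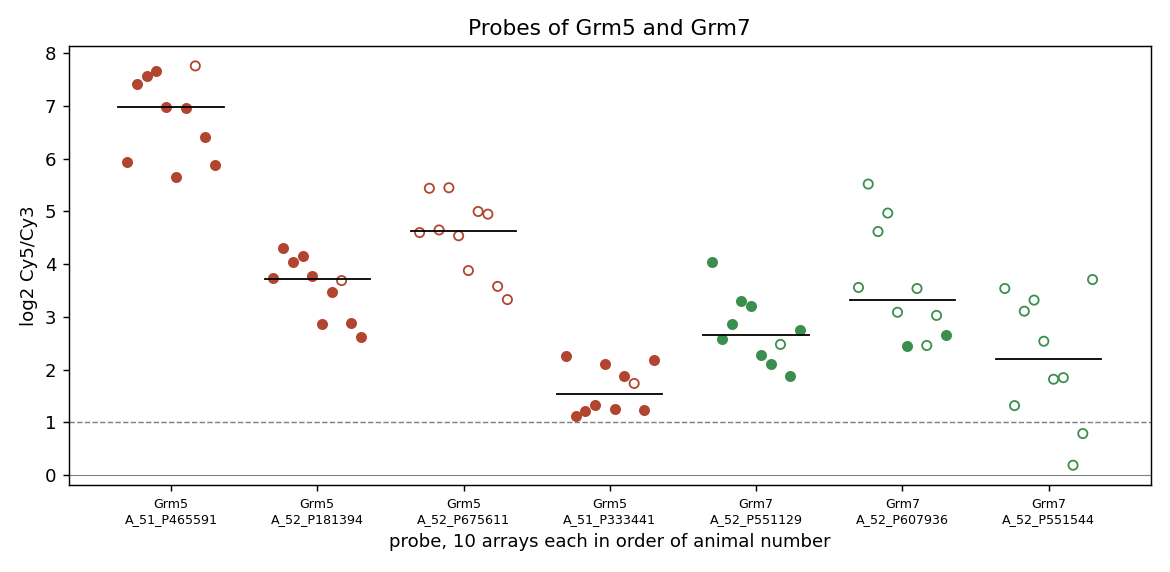
Log2 Cy5/Cy3 of the 4 probes of Grm5 and the 3 probes of Grm7 on 10 arrays, with bars at the median and filled points where both dyes were well above background. The Grm5 probes spread from a median of 1.54 to one of 6.97, and the Grm7 probes from 2.19 to 3.31.

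To compare animals without the reference channel, the log2 Cy5 signal was taken less the array's 75th percentile. This scaled signal of A_51_P465591 was 1.14 on C10-413, 1.16 on C10-437 and 1.73 on C10-424, and between 1.95 and 2.95 on the other 7 arrays. C10-413 and C10-437 were each alone on a slide, so their low values cannot be assigned to animal or slide. Its range of 1.81 was the widest among the brightest probes of the 4 receptors bright on every array, and wider than that of 94.7% of the 11309 genes well above background in Cy5 and with a value on all arrays, whose median range was 0.88. Without C10-434 the range was again 1.81. A_52_P181394 and A_52_P675611, also well above background in Cy5 on all 10 arrays, had ranges of 0.93 and 1.26, beside 0.95 for A_52_P551129 of Grm7. The probes of Grm5 did not order the arrays alike. A_51_P333441 was highest on C10-437, at -1.85, where A_52_P181394 and A_52_P675611 were lowest, at -2.38 and -3.15.

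The group II receptors, which act as autoreceptors and on glia, gave both a bright and a dim probe. Grm3 (A_51_P486543) ran from 6.80 on C10-435 to 8.57 on C10-417, with a median of 7.41. Both dyes were well above background on 2 arrays, C10-423 and C10-437, with ratios of 7.40 and 6.93. On the other 8 arrays the hemibrain signal was at least 56.9-fold to at least 186-fold higher, with a median bound of 123 and the lowest on C10-434. The lowest log2 ratio of Grm3 was 4.70 after subtraction with a floor and 0.28 with normexp. Its scaled Cy5 signal had the narrowest range among the brightest probes of the 4 bright receptors, between 0.79 (C10-413) and 1.43 (C10-437). That range of 0.64 was wider than in 19.2% of the genes well above background, and in 24.2% without C10-434.

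Grm2 (A_52_P342888) gave log2 ratios from 1.01 on C10-435 to 3.74 on C10-417, with a median of 2.50, or 2.70 without C10-434. It was well above background in Cy5 on 9 arrays, C10-434 being the exception, and in both dyes on C10-424 and C10-437 alone, where the ratio was 1.25 and 1.08. On the 7 arrays with Cy5 alone above background the bound ran from at least 1.68-fold to at least 11.1-fold. The 2 arrays with a measured ratio were thus among the lowest, and the call of Grm2 above 1 on every array rests on a lowest value of 1.01. With the deposited log ratio, with centring on the median and in the authors' table that lowest value was 0.94, 0.96 and 0.94, and Grm2 no longer passed.

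Promoter windows for 5 of the 7 receptors are in the RefSeq table used here (build GRCm38.p6), in 8 windows since Grm7 has 2 starts and Grm8 has 3, and Grm4 and Grm5 have none there. The 250 bases before the start of Grm2 (chr9:106656110-106656359, minus strand), of Grm3 (chr5:9725353-9725602, minus strand) and of Grm6 (chr11:50850435-50850684, plus strand) are shown because they belong to a dim and a bright receptor of group II and to the receptor whose brightest probe had the lowest median Cy5 signal. Capitals mark matches to the motifs named after them.
Grm2: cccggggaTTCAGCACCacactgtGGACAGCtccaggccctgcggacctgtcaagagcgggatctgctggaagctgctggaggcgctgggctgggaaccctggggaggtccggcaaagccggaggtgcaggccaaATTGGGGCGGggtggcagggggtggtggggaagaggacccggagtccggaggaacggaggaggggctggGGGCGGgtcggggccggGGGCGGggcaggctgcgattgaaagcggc
Grm3: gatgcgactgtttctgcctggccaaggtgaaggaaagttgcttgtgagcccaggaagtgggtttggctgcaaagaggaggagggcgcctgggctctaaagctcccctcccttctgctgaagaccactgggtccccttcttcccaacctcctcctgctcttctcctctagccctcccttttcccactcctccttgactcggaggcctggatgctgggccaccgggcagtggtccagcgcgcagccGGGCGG
Grm6: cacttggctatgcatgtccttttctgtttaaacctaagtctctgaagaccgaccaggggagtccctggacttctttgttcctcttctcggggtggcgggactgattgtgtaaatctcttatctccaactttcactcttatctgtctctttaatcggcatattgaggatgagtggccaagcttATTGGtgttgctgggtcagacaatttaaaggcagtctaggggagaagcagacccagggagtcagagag
Both strands were searched for TTCAGCACC (the left part) and GGACAGC (the right part) of the RE1 element, which the repressor of neuronal genes REST binds, for GGGCGG (the GC box), for TATAAA (the TATA box), for CCAAT (the CCAAT box) and for the E-box CACGTG. The RE1 parts were added after the Grm2 sequence had been seen. In the Grm2 window both parts lie in the same orientation with 7 bases between them, the left part from 242 to 234 bases before the start. Of 32851 promoter windows of this length 0.301% hold the left part, 5.28% the right part and 0.0152%, or 5 windows, both. The last share counts both parts at any distance and in any orientation, so it is not the share with the Grm2 spacing. The GC box was found 3 times in the Grm2 window, once overlapping a reversed CCAAT by a base, and 1 time in that of Grm3. Of the receptors' 8 windows 5 hold it, although the 2 windows of Grm7 overlap and share 1 site, and 32.7% of all windows do. The Grm6 window held a reversed CCAAT, which 4 of the 8 and 33.8% of all windows hold on either strand. TATAAA was found in 0 of the 8 windows and CACGTG in 0, against 12.4% and 6.02% of all windows. These matches are descriptions of letters, not of binding.

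Of group III, Grm8 (A_52_P25774), a presynaptic receptor of high glutamate affinity, ran from 5.53 (C10-417) to 6.71 (C10-415) with a median of 6.13. Its Cy3 spot was well above background on C10-437 alone, where the ratio was 5.63. On the other 9 arrays the hemibrain signal was at least 11.8-fold to at least 58.1-fold higher, with the lowest bound on C10-434. The lowest log2 ratio of Grm8 was 2.44 after subtraction with a floor and 0.13 with normexp. Its scaled Cy5 signal lay between -1.22 and -0.45, a range of 0.78 that exceeded those of 37.1% of the genes well above background, or 42.9% without C10-434.

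Grm7, a receptor of active zones with low affinity for glutamate, had 3 probes. The brightest, A_52_P551129, ran from 1.89 (C10-435) to 4.05 (C10-413) with a median of 2.67 and was well above background in both dyes on 9 arrays. A_52_P607936 ran from 2.45 to 5.52 with a median of 3.31, with both dyes above background on 2 arrays. The dimmest, A_52_P551544, ran from 0.19 to 3.71 and was well above background in Cy5 on 4 arrays and in Cy3 on 0, so that it did not pass the rule of 1 on every array. Without C10-434 its lowest value was 0.79. In scaled Cy5 signal, A_52_P551129 was highest on C10-437 (-1.75), C10-413 (-1.87) and C10-425 (-1.90) and lay between -2.70 and -2.31 on the other 7. C10-437 and C10-413 were each alone on a slide.

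Grm4 (A_52_P565567) ran from 0.10 on C10-434 to 2.37 on C10-424, with a median of 1.73, and was well above background in Cy5 on 7 arrays and in both dyes on 5. Without C10-434 its lowest value was 0.61. Its Cy5 signal was 359 on C10-413 and at most 238 on the other arrays, and its scaled signal was highest on C10-413 too, at -3.06 against -5.51 to -3.41. Of the 9 genes of the cerebellar granule and Purkinje cell list, the granule cell genes Gabra6 and Cbln3 were well above background in Cy5 on C10-413 and on 0 of the other 9 arrays. Gabra6 had a Cy5 signal of 183 there against at most 26.7 elsewhere, and Cbln3 one of 68.7 against at most 25.5. In scaled Cy5 signal 3 of the 8 genes with a value on C10-413 (Gabra6, Cbln3 and Ppp1r17) were highest there. Cbln1 was at 1.75 on C10-413 and 2.19 on C10-415, and Neurod1 at -3.25 on C10-413 and -3.18 on C10-423. Car8 was at -3.88 on C10-413, over a range of -4.05 to -2.37 on all arrays. Calb1 was at 2.75 there, over 2.30 to 3.16, and Pcp2 at 0.22, over -0.18 to 1.31. Each of these 3 genes was higher on most of the other arrays. All 9 genes of the list were well above background on C10-413, 7 on each of 8 arrays and 4 on C10-434. The summed Cy5 signal of the list ran from 23000 on C10-434 to 51600 on C10-423 and was 34800 on C10-413, where Zic1 was set aside as an outlier spot. The probe of Calb1 had the highest Cy5 signal of those with a value on each array, although signals of different probes do not share a scale. The part of granule cell RNA in the Grm4 signal was not tested. Nor was that of the slide, since C10-413 was alone on slide 1.

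Grm6 (A_51_P224938) had the lowest median Cy5 signal among the brightest probes of the 7 receptors. Its Cy5 signal lay between 29 and 109 and its log2 ratio between -0.18 (C10-434) and 2.18 (C10-413), with a median of 1.01. Without C10-434 the lowest value was 0.61 and the median 1.26. It was well above background in Cy5 on 7 arrays and in both dyes on 2, where the ratio was 0.61 and 0.71. Of the 9 genes of the retinal list, 1 (Nrl) was above 1 on every array, against 17.7% of all genes. Nrl was at least 2.41-fold to at least 5.61-fold higher on the 8 arrays where Cy5 alone was well above background. The list median was 0.65. Trpm1, the channel that Grm6 controls in ON bipolar cells, was well above background in Cy5 on 0 of 10 arrays and in Cy3 on 0. It was the only gene of the list dim in Cy5 on every array. Nyx and Pcp2 were well above background in both dyes on all 10 arrays, and Gpr179 and Nrl in Cy5 on 9.

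By median log2 ratio the order was Grm3, Grm5, Grm8, Grm7, Grm2, Grm4 and Grm6. The ranges over arrays of neighbours in this order overlapped for each pair but Grm8 and Grm7, where Grm8 was higher on 10 of 10 arrays. Grm3 was above Grm5 on 9 arrays and Grm5 above Grm8 on 7. With the floor and offset Grm5 (5.71) was above Grm3 (5.05), as it was with normexp and the offset (4.75 and 4.44) and with the offset alone (6.50 and 6.12), but not with normexp without the offset (5.60 and 5.72). As the mean of its probes Grm5 (4.34) was below Grm8 (6.13). Without C10-423 or C10-437, Grm2 (2.70) was above Grm7 (2.58), as it was when spots not well above background in Cy5 were left out (2.70 and 2.67). Since most of these ratios are partly set by a dim Cy3 spot, the order is one of ratios and not of receptor levels.

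**Figure D3:**
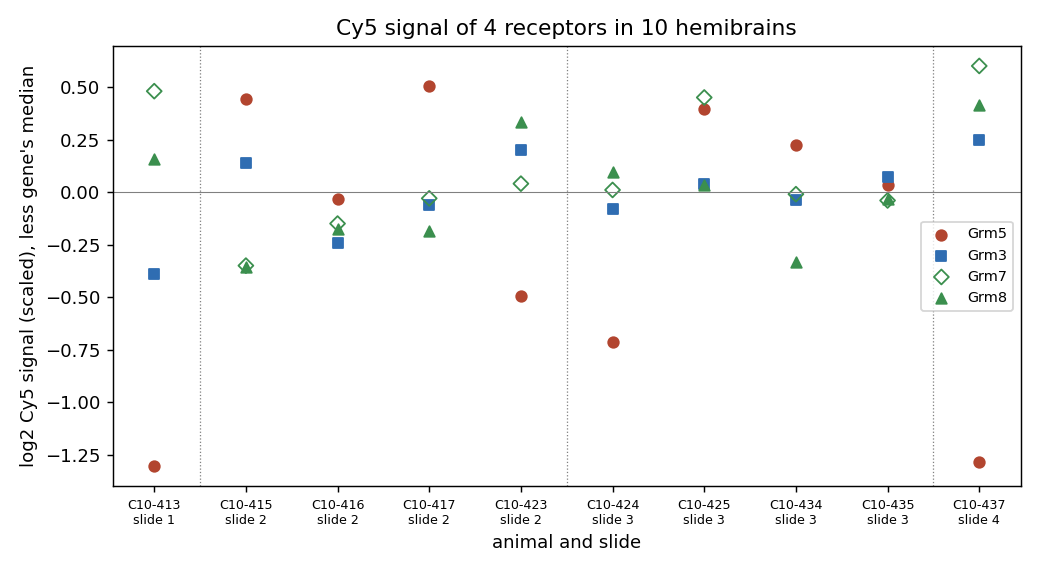
Log2 Cy5 signal of 4 receptors in 10 hemibrains, scaled by each array's 75th percentile and drawn as the difference from the gene's own median, with dotted lines between slides. Grm5 is lowest on C10-413 and C10-437, at 1.14 and 1.16 before its median of 2.45 is taken off.

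The slides were compared with limma over 40299 probes, slide 3 less slide 2, with 4 arrays each. C10-434, the array with the fewest probes well above background, lay on slide 3. Slide and animal cannot be told apart in this comparison, because each slide held different mice. Of the 12 receptor probes 0 differed at an adjusted p under 0.05, against 0.0744% of all probes, and the smallest adjusted p from limma among them was 0.207. At an unadjusted p under 0.05, 6 of the 12 differed, against 9.92% of all probes, and all 6 were lower on slide 3. After subtraction with a floor 2 of the 12 did so, both of Grm5, against 7.46% of all probes, and with normexp 0 did, against 2.71%. The 6 were the probes of Grm2 and Grm3, A_52_P181394 of Grm5 and the 3 probes of Grm7. With every array kept, the log2 ratios of 2 probes did not overlap between slides, against 7.19% of all probes. A_52_P551129 of Grm7 lay between 2.58 and 3.31 on slide 2 and between 1.89 and 2.48 on slide 3. A_52_P181394 of Grm5 lay between 3.78 and 4.31 and between 2.86 and 3.69.

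The dyes were then fitted singly, a comparison chosen after these values were seen. In the scaled Cy5 signal 0 of the 12 probes differed at an adjusted p under 0.05, with a smallest limma adjusted p of 0.106, and 1 did at an unadjusted p under 0.05, against 17.2% of all probes. That probe was the one of Grm6, with a Cy5 difference of 0.92 and a standard error of 0.28. For A_52_P551129 the Cy5 difference was 0.22 with a standard error of 0.19, and for Grm3 it was -0.01 with a standard error of 0.17. In the scaled Cy3 signal, that of the reference channel, 3 of the 12 differed, and 7 did at an unadjusted p under 0.05, against 31.1% of all probes. A_52_P551129 was higher on slide 3 by 1.06 (limma adjusted p of 0.00376) and A_52_P181394 by 0.82 (0.00107). On C10-434, an array of slide 3, the Cy3 spots of both were not well above background. The third was the Grm6 probe, whose Cy3 spot was well above background on 0 arrays of slide 2 and 2 of slide 3, so that its difference is partly one of background. Over all probes 5241 (13%) differed in Cy3, of which 4735 were higher on slide 3, and 2704 (6.71%) in Cy5, of which 2570 were higher. The scaled Cy5 signal of 0 receptor probes was without overlap between slides, against 14.4% of all probes.

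**Figure D4:**
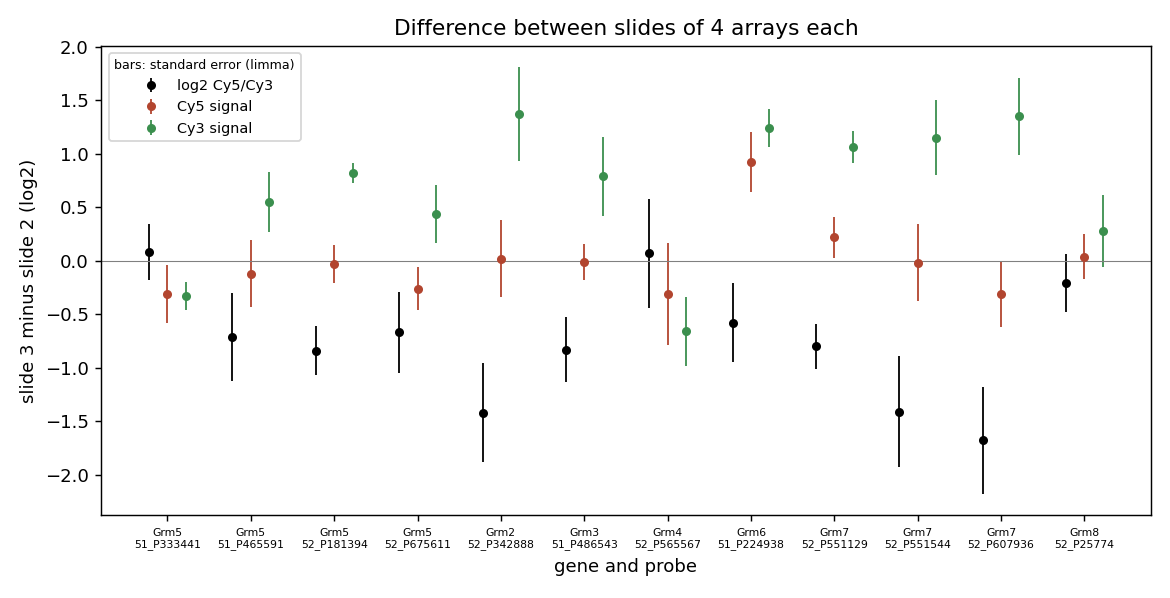
Difference between slide 3 and slide 2 for the 12 receptor probes, as log2 Cy5/Cy3 (black) and as scaled log2 Cy5 and Cy3 signal, with limma's standard error, 4 arrays on each slide. The ratio differences lie below 0 and the Cy3 differences above 0 for all probes but that of Grm4 and A_51_P333441 of Grm5.

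Genes around the receptors were described from fixed lists, by the same rule. Of the 12 genes of glutamate supply and clearance, 10 were above 1 on every array, and the list median was 4.68. Slc1a2, the main astrocytic glutamate transporter, was highest at 10.23. Of the G proteins and effectors of group I receptors, 3 of the 8 genes with a value on every array were above 1 and the list median was 1.48, with the phospholipase Plcb3 lowest at -1.18. For group II and III receptors the list median was 3.66. Of these 14 genes 11 were above 1 and 1, Gnai3 (-2.18), was below -1, and the adenylyl cyclase Adcy1 was highest at 5.85.

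Scaffolds and binding partners had a list median of 2.95, with 9 of the 13 genes with a value on every array above 1. Homer2, which ties Grm5 to the postsynaptic density, was highest at 4.61 and the ubiquitin ligase Siah1a lowest at -0.37. For desensitisation the list median was 1.80 and 4 of the 7 genes with a value on every array passed. The kinase Grk5 had the lowest median of the list (-0.46), and Rgs4, a regulator of G protein signaling with a value on 9 arrays, the highest (6.53). The other class C receptors had the lowest median of the 6 lists, at 0.89, with 5 of 12 genes above 1. Among these, Gprc5a was lowest at -1.30. Gpr158 had the highest median ratio, and its hemibrain signal was at least 53.2-fold to at least 254-fold higher on the 9 arrays where its Cy3 spot was not well above background. In the slide comparison 0 genes of these 6 lists differed, among those with a value on the 8 arrays, against 0.0744% of all probes.

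**Figure D5:**
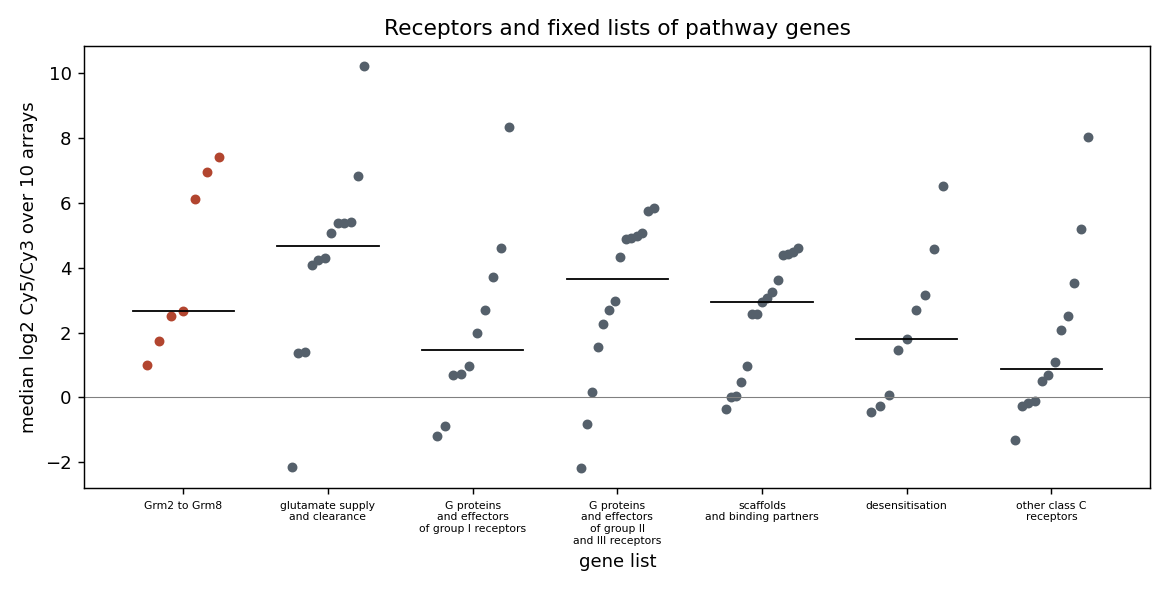
Median log2 Cy5/Cy3 over 10 arrays of each gene, for the 7 receptors and 6 lists of genes of their pathway, with bars at the median of each list. The receptors have a median of 2.67, between the 1.80 of desensitisation and the 2.95 of scaffolds.

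For the 4 receptors bright in Cy5 on all arrays, the genes with the most similar log2 ratios over the 10 arrays were sought among 10511 genes well above background in both dyes. The points share their arrays and the highest of many correlations is large by selection, so Pearson's r is given as a description. The Cy3 spot of Grm3 was well above background on 2 of the 10 arrays and that of Grm8 on 1, so that their ratios over arrays, and the values of r, are partly set by background. Grm5 was most like Wscd2 (0.97), Dut (0.95) and Ttyh1 (0.94). Grm3 was most like Efnb3 (0.95), Foxc1 (0.92) and Elapor1 (0.92). Grm7 was most like Slco1a4 (0.94), 2510009E07Rik (0.93) and Erc2 (0.89). For Grm8 the genes were 1700025G04Rik (0.95), Qars (0.90) and Map2k6 (0.88). Without C10-434 these values lay between 0.87 and 0.97.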

How the data were processed

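Hemibrain RNA in Cy5 and a reference RNA in Cy3 were measured on 10 arrays. The authors deposited Feature Extraction output (version 10.10.1.1 in the headers). The deposited intensity of each dye is linear, the deposited log ratio is the log10 of Cy5 over Cy3, and its deposited flags mark spots well above background and outliers. The authors' deposited table holds log2 values whose scale and direction were found by setting each column against that array's log ratio, with a correlation of at least 0.9972. Its column medians lay between -0.0512 and 0.102. The paper names a LOWESS normalization within each array, and how the deposited table was centred beyond that is unknown.

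Log2 Cy5/Cy3 came from the processed signals after a loess fit per array (span 0.3, R 4.3.3, limma 3.58.1), without control spots and outlier spots, and spots of a probe were averaged. Of 41174 probes 27198 (66.1%) were named through RefSeq accessions of GRCm38.p6, used for names alone. The probe of highest mean log2 Cy5 signal stood for a gene. The rule named each receptor by all its probes, the highest and lowest gene of each list, and the 3 genes most like each bright receptor. Some genes that this rule would name are not reported here. Receptors and lists were chosen with earlier results of these data known. Slides were compared with limma and Benjamini-Hochberg adjustment, and the script was tested on simulated data. Alternatives were the deposited log ratio, median centring, normexp, the authors' table, all probes of a gene, brighter spots alone, a lower fold and leaving out each array. Subtraction with a floor, the offset alone, normexp without it, single dyes and the values without C10-434 were added after the data were seen. Gabra6 and Cbln3 were singled out after their values were seen. Precision is limited by how many arrays there are and by dim spots.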

Additional observations from a re-analysis of the deposited data

Results flagged for a closer look

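Of 29 measures over the 10 arrays, 24 of them the ratio and the scaled Cy5 signal of the 12 receptor probes, an array lay further from the rest than Dixon's test allows at the 95% level in 3. Chance sets apart about 1 in 20 such groups. All 3 were measures of the whole array and fell on C10-434. Its share of probes well above background was 49.8% in Cy5, against 68.2% to 76.9%, and 61.9% in Cy3, against 70.3% to 79.1%. Over all probes it correlated with the rest at a mean r of 0.894, where the other arrays had 0.933 to 0.95. Of the receptor measures 0 were set apart, and the part of the dim channel in the receptors' values on this array was not tested beyond the values given without it.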

How the results depend on the processing

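The count of genes higher on every array (3133) was 608 with normexp and between 3139 and 3362 when 1 array was left out. A gene that passes on every array also passes with 1 left out, so the counts of genes and receptors could not fall there. Of the receptors, 5 passed with each array left out, 4 with the deposited log ratio, median centring or the authors' table, which lost Grm2, 3 (Grm3, Grm5 and Grm8) after subtraction with a floor and 0 with normexp. The normexp fit put the Cy5 background below 0 on all 10 arrays, from -2840 on C10-413 to -5.31 on C10-434, and its part in these changes was not tested. Both settings also changed the input signals and added an offset of 50. Normexp without the offset gave 617 genes and 0 receptors, and the offset alone 4 receptors. The median log2 ratio of all 7 receptors was lower in normexp with offset and in floor with offset: Grm2 from 2.50 to 0.44 and 0.68, Grm3 from 7.41 to 4.44 and 5.05, Grm4 from 1.73 to 0.22 and 0.40, Grm5 from 6.97 to 4.75 and 5.71, Grm6 from 1.01 to 0.07 and 0.23, Grm7 from 2.67 to 1.15 and 1.56 and Grm8 from 6.13 to 2.55 and 3.28. With the offset alone the medians of Grm2, Grm3, Grm5 and Grm8 were 1.32, 6.12, 6.50 and 4.37, and with normexp without it 1.03, 5.72, 5.60 and 3.83. The median of Grm5 was 4.34 as the mean of its probes.

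The slide comparison called 30 probes, 10 higher and 20 lower on slide 3. It called 0 with normexp, 0 after subtraction with a floor, 92 among the 19482 probes well above background in Cy5 and between 0 and 8 when any 1 of the 8 arrays was left out. With the deposited log ratio 27 were higher and 18 lower, in the authors' values 15 and 16, and with median centring 11 and 15. Receptor probes were called in 0 of these settings. The sign of a slide difference that had not passed the test changed with normexp for Grm3 (0.12), Grm4 (-0.05), Grm5 (0.01), Grm6 (0.10) and Grm8 (0.06), and after subtraction with a floor for Grm4 (-0.02), Grm6 (0.04) and Grm8 (0.03). For Grm4 it lay between -0.22 and 0.55 with 1 array left out. No paired analysis was run, since the slides held different mice and share no replicate numbers. Both slides held arrays at the same positions, and a fit blocked by position was not run.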
